A study of Mus musculus with 6 samples.

Results

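Along 2 stretches of mouse chromosome 4, nearly every gene with measurable RNA stood several times higher in I60 cells than in PBS cells. I60 is a line of Py2T cells kept under the higher of 2 hydrogen peroxide doses. The first stretch runs from Usp24 to Kti12 (chr4:106315980-108862120 on GRCm38, the build also named mm10; 2.55 Mb). The second runs from Nsun4 to Hpdl (chr4:116033002-116821508; 0.789 Mb), and 7.17 Mb lie between them. Members were the genes that start inside either stretch and reach a summed level of at least 0.2 CPM over the 6 libraries, where CPM scales the reads of a gene to a common library total. Of the 24454 rows of the deposited table, 68 met that rule, 45 in the first stretch and 23 in the second. Of these 68 genes, 65 code for proteins. The stretches hold 74 rows in all: 2 were at 0 in every library, 2 were below the floor and 2 were not analysed here. Just inside the floor were Ttc22 and Dio1, with 0.305 and 0.642 CPM summed over the libraries, and just outside it were sums of 0.108 and 0.0933 CPM. The members were chosen by measured values of these libraries, taken here to be the high RNA levels of this region in I60 against PBS, so the I60 levels are given as a description and nothing is supported by their calls.

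Py2T is a mouse breast cancer cell line, and its source is labelled as a tumour of the mammary gland. PBS cells served as control, labelled with 0 µM hydrogen peroxide (H2O2) over 4 months and named as untreated in the treatment protocol. C40 cells had been given 40 µM H2O2 and I60 cells 60 µM H2O2, daily over 4 months. Each group has 2 libraries of total RNA depleted of ribosomal RNA, described as biological duplicates. Whether the duplicates were cultured apart through the 4 months is not known here, so the p-values measure the spread between these libraries. The labels name 1 treated line per dose, and a difference that arose in it without H2O2 cannot be told apart from an effect of H2O2.

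Genes that neighbour each other on a chromosome usually serve unrelated functions, and most are regulated one by one from their own promoters. Neighbours can nevertheless move together, for example when cells gain or lose copies of a chromosome segment, when an open or closed chromatin state spreads over several genes, or when genes share distant regulatory DNA. The deposited values measure RNA alone, and neither DNA copies nor chromatin were analysed here. In bulk samples such as these, more RNA per cell and more cells that make the RNA cannot be told apart.

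The promoters at the ends of the stretches show what their boundary genes start from, and those of Acot11 and Tspan1 belong to 2 members whose RNA departed from the rest. The sequences are RefSeq's on GRCm38.p6, 300 bases around the first listed start of each gene, written 5′ to 3′ on the gene's own strand. Capitals mark the motif letters searched on both strands: GGGCGG (Sp family), CCAAT (NF-Y), CCGGAAG (ETS family), TGACNNNGC (the core of the antioxidant response element), TGANTCA (AP-1) and CAGGTG (an E-box). A match is a description of the letters and not a binding site.
Usp24, first gene of the first stretch (chr4:106315963-106316262, plus strand): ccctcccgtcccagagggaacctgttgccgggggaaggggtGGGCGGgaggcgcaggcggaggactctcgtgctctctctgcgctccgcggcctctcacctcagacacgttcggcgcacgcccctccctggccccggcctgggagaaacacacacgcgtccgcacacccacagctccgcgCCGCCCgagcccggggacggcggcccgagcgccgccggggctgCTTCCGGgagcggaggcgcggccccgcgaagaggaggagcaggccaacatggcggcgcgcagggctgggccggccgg
Kti12, last gene of the first stretch (chr4:108847607-108847906, plus strand): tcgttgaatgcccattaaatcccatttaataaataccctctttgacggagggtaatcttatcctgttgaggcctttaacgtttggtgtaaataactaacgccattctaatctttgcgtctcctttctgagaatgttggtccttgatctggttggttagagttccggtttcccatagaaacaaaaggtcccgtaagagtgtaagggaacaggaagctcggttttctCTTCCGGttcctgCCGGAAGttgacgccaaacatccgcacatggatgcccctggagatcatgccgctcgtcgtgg
Nsun4, first gene of the second stretch (chr4:116053762-116054061, minus strand): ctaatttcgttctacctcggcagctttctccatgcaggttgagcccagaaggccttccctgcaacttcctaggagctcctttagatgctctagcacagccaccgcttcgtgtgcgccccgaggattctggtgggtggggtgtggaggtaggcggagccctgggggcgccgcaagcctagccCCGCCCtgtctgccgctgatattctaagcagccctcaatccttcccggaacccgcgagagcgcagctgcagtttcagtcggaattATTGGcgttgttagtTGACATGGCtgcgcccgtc
Hpdl, last gene of the second stretch (chr4:116821459-116821758, minus strand): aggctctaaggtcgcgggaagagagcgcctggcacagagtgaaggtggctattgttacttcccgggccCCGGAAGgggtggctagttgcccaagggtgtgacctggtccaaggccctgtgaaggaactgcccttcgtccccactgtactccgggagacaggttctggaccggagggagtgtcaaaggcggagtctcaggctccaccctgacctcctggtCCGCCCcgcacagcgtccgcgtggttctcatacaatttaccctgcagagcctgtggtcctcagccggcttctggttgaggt
Acot11, higher in C40 than in I60 (chr4:106804958-106805257, minus strand): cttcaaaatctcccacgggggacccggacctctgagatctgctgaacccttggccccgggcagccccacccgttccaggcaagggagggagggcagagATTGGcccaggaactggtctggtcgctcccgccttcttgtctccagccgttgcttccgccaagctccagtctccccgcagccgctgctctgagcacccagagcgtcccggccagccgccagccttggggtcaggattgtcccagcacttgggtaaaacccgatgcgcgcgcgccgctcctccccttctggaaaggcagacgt
Tspan1, lower in I60 than in PBS (chr4:116167549-116167848, minus strand): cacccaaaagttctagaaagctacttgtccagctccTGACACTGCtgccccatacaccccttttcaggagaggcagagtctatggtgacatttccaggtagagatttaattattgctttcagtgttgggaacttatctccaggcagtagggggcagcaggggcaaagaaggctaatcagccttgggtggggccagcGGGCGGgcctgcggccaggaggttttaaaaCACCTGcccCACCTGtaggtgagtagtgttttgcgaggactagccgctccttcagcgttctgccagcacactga

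No searched motif was held by all 6 of these promoters. The Kti12 promoter held 2 copies of the ETS letters, one on each strand, and no GGGCGG. The Usp24 promoter held 2 copies of the Sp letters and 1 of the ETS letters. In the Tspan1 promoter lay 2 E-box copies side by side, an antioxidant response core and 1 GGGCGG. The Acot11 promoter held none of these letters except 1 CCAAT, read on the opposite strand. The Nsun4 promoter held 1 copy each of the Sp, NF-Y and antioxidant response letters, and the Hpdl promoter 1 each of the Sp and ETS letters.

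Over all members, 62 of 68 promoters were matched in the RefSeq table, 31 on each strand. Of the 55 members that passed the expression filter given below, 52 were matched. Their median GC content was 57.8%, against 61.3% over the 9215 matched promoters of all genes that passed it and 52.7% over all 27025 promoters in the table. GGGCGG was held by 75.0% of the 52, against 67.1% of all genes that passed and 35.9% of all promoters. CCAAT was found in 44.2% of the 52, against 39.3% of all genes that passed and 37.9% of all promoters. The ETS letters were found in 25.0%, against 19.6% and 9.12%, and the antioxidant response core in 23.1%, against 14.8% and 12.5%, in the same order. AP-1 letters stood in 5.77%, against 5.06% and 7.93%, and E-box letters in 15.4%, against 16.8% and 20.0%. The AP-1 letters stood in 3 of the 10 matched members that did not pass. The shares were not tested against each other.

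Libraries held between 48113692 and 60260520 counted reads, and a single read was worth between 0.0166 and 0.0208 CPM. Of the 68 members, 55 passed the filter of at least 1 CPM in at least 2 libraries, 33 in the first stretch and 22 in the second, and 13 did not. Over all 11524 genes that passed, the SD of the log2 difference between a group's libraries was 0.363 for PBS, 0.623 for C40 and 0.379 for I60. C40 thus had the widest gap between duplicates. Of the epithelial markers, Krt8 and Krt18 were present in every library, while Cdh1 was at 529 and 537 CPM in PBS, 59.7 and 87.8 CPM in C40 and 0.187 and 0.129 CPM in I60. All 7 epithelial markers together summed to 6994 and 7473 CPM in PBS, 3810 and 3579 CPM in C40 and 3154 and 3091 CPM in I60. The I60 sums were nearly all Krt8 (1707 and 1574 CPM) and Krt18 (1443 and 1513 CPM). Krt7 was at 3115 and 3024 CPM in PBS, 792 and 863 CPM in C40 and 3.28 and 3.04 CPM in I60. Epcam, Cldn3 and Esrp1 had at least 180 CPM in PBS, 28.0 to 75.0 CPM in C40 and at most 1.07 CPM in I60. Mesenchymal markers, 4 in all, summed to 1166 and 1746 CPM in PBS, 8045 and 13021 CPM in C40 and 4795 and 6644 CPM in I60. Fn1 made up most of the PBS and C40 sums. It had 1120 and 1725 CPM in PBS, 4870 and 10677 CPM in C40 and 958 and 2269 CPM in I60. Vim was highest in I60, with 40.5 and 18.8 CPM in PBS, 3055 and 2229 CPM in C40 and 3765 and 4286 CPM in I60. Cdh2 and Zeb1 had at most 6.04 CPM in PBS and at least 31.8 CPM in both treated lines. Of the 6 fibroblast markers, Fap, Lum and Thy1 were at 0 throughout, and the sum of the list was 6.01 to 6.86 CPM in PBS, 38.6 to 52.1 CPM in C40 and 15.2 to 25.0 CPM in I60. Immune markers, 3 in all, summed to at most 28.0 CPM, nearly all of it Cd68, and Cd3e was at 0. Endothelial and adipocyte markers, 3 each, summed to at most 0.603 and 0.880 CPM. The epithelial and mesenchymal sums differ between the lines in the same libraries as the members, and their part in the members' levels was not tested.

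Together the members took up 28380 and 26291 CPM in I60, against 3124 and 3285 CPM in PBS. As a share of counted reads this was 2.84% and 2.63% in I60, against 0.312% and 0.328% in PBS. The C40 libraries lay between, at 6048 and 4543 CPM. The summed level was thus 1.65 times that of PBS in C40 and 8.53 times in I60. The 27 genes with signal between the stretches, which serve as the reference, summed to 1040 and 975 CPM in PBS, 780 and 1015 CPM in C40 and 838 and 1008 CPM in I60. Their sum was 0.891 times that of PBS in C40 and 0.917 times in I60.

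**Figure D1:**
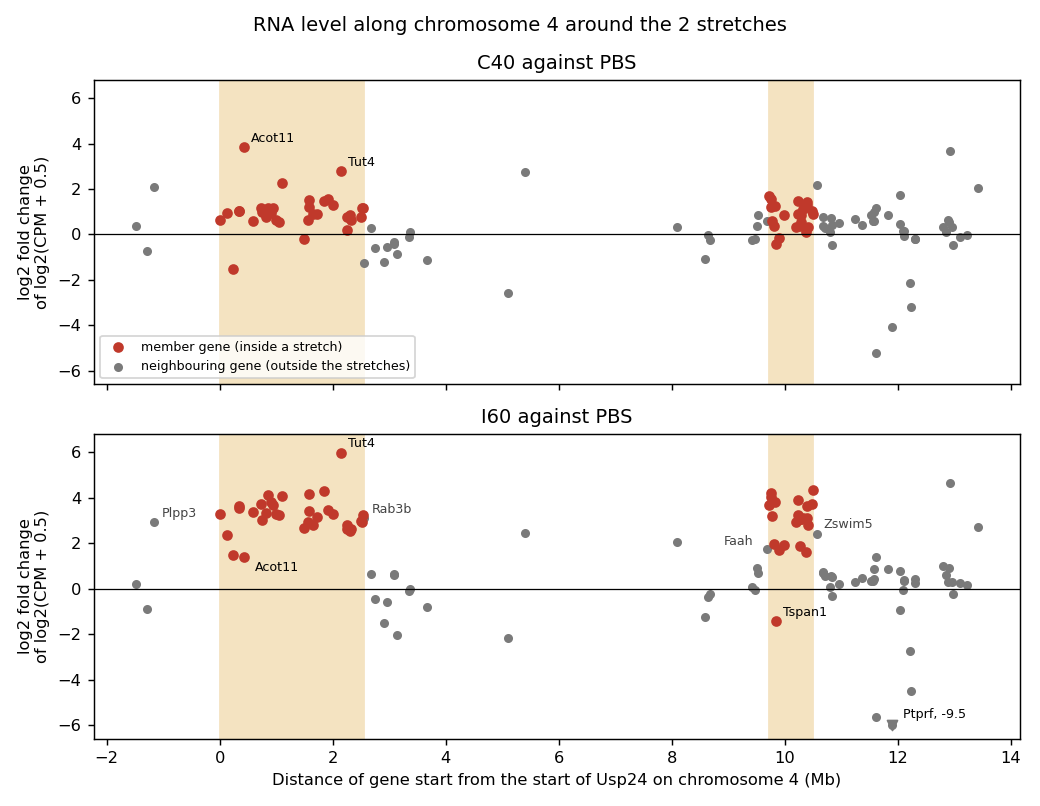
Log2 fold change of log2(CPM + 0.5) for each tested gene, plotted by the distance of its start from the start of Usp24 in Mb, for C40 against PBS (top) and I60 against PBS (bottom). Red points are members and shaded bands the 2 stretches, grey points are neighbours; in I60 the members lie near 3.22 and the genes between near -0.04, while Ptprf lies below the axis and is drawn at its edge as a triangle.

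By gene, the median log2 fold change of the 55 tested members in I60 over PBS was 3.22, a 9.32-fold difference, with quartiles of 2.79 and 3.68. It was 3.26 in the first stretch and 3.10 in the second, or 9.60-fold and 8.56-fold. All folds are on the scale of log2(CPM + 0.5), which understates the change of low genes. Over the 22 tested genes between the stretches the median was -0.04, over all 674 tested genes of chromosome 4 outside the stretches it was 0.03, and over all tested genes it was -0.002. Both I60 libraries lay above both PBS libraries for 54 of the 55 members, and below them for 1, where 35.5% and 35.2% of all tested genes did so. By limma's test with Benjamini-Hochberg adjustment 52 were called higher and 1 lower, where 13.9% and 13.1% of all tested genes were called. Since I60 chose the stretches, nothing is read from these counts. In the plot along the chromosome, whose edges the choice of members fixed, 2 neighbours of the first stretch lie within the members' quartiles in I60. They are Plpp3, the nearest tested gene before it, at 2.93 and Rab3b just after it at 3.10. Plpp3 does not adjoin the stretch, as it ends at 105232767 and the stretch starts at 106315980.

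Between the stretches, single genes did differ. In I60 against PBS, 5 of the 22 tested genes there were called higher and 4 lower by limma at an adjusted p below 0.05. These are 22.7% and 18.2%, where 13.9% and 13.1% of all tested genes were called. Counts were 3 to 6 for each direction when any 1 library was left out. The 5 were Rab3b, Nrd1, Spata6, Trabd2b and Faah, of which Rab3b, Nrd1 and Faah adjoin a stretch. The lower ones were Calr4, Rnf11, Bend5 and Foxd2os. Rnf11, a RING finger protein, had 49.4 and 63 CPM in I60, against 241 and 224 CPM in PBS, which is lower in both I60 libraries.

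At the edges, some neighbours were close to the members in I60 and others were not. Usp24 (Entrez ID 329908, chr4:106315980-106446613), a deubiquitinating enzyme, had 242 and 188 CPM in PBS, 388 and 281 CPM in C40 and 2137 and 1981 CPM in I60. Both I60 libraries stood far above the rest, and the I60 over PBS log2 fold change was 3.27 ± 0.21 (SE). The nearest tested genes before it, neither of which adjoins it, are Prkaa2 and Plpp3. Prkaa2, a catalytic subunit of the energy sensor AMPK, had 20.4 and 17.1 CPM in PBS, 7.46 and 16.6 CPM in C40 and 8.93 and 10.8 CPM in I60. Plpp3, a lipid phosphatase, had 3.57 and 2.97 CPM in PBS, 25 and 9.25 CPM in C40 and 25.7 and 30.8 CPM in I60. Prkaa2 did not pass by limma in either line, at log2 fold changes over PBS of -0.72 in C40 and -0.90 in I60. Plpp3 was high in both lines, at 2.07 in C40 and 2.93 in I60.

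The first stretch ends with Txndc12, a thioredoxin-like protein of the endoplasmic reticulum, and Kti12, whose yeast counterpart works with the Elongator complex. Txndc12 (chr4:108834678-108862120) had 28.4 and 30.2 CPM in PBS, 66.7 and 67.2 CPM in C40 and 215 and 242 CPM in I60. Kti12 (Entrez ID 100087, chr4:108847857-108849412) lies inside the Txndc12 gene and had 59.8 and 55.1 CPM in PBS, 143 and 117 CPM in C40 and 661 and 456 CPM in I60. For both, all 3 groups were separate and I60 was the highest. Beyond them, Rab3b, a small GTPase of secretory vesicles, had 3.82 and 2.46 CPM in PBS, 1.58 and 0.607 CPM in C40 and 39 and 23.2 CPM in I60, and Nrd1, a metalloprotease, had 149.6 and 138 CPM in PBS, 165 and 186 CPM in C40 and 198 and 251 CPM in I60. Rab3b was high in I60 like the members but low in C40, and Nrd1 differed by only 0.63 on the log2 scale in I60 over PBS.

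Mknk1 and Faah are the nearest tested genes before the second stretch. Mknk1, a kinase of the translation factor eIF4E, had 22.9 and 26.9 CPM in PBS, 21 and 98.9 CPM in C40 and 28.3 and 58.6 CPM in I60, with its high values in replicate 2 of both treated lines. Faah, which breaks down fatty acid amides, had 15.2 and 17.9 CPM in PBS, 25.1 and 25.5 CPM in C40 and 53.1 and 62 CPM in I60. Its groups did not overlap, at an I60 over PBS log2 fold change of 1.76. Nsun4 (Entrez ID 72181, chr4:116033002-116053879), a methyltransferase of mitochondrial ribosomal RNA, had 13.8 and 16.7 CPM in PBS, 56.2 and 44.9 CPM in C40 and 201 and 205 CPM in I60. With a log2 fold change of 3.70 ± 0.20 (SE) it stood at the level of the stretch. Next to it, Uqcrh, a subunit of respiratory complex III, had 71.6 and 75.4 CPM in PBS, 271 and 109 CPM in C40 and 1368 and 1345 CPM in I60.

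Toe1, an exonuclease that trims small nuclear RNAs, and Hpdl close the second stretch. Toe1 had 32.5 and 34.9 CPM in PBS, 78 and 62.4 CPM in C40 and 414 and 493 CPM in I60. Hpdl (Entrez ID 242642, chr4:116819907-116821508), a mitochondrial protein related to 4-hydroxyphenylpyruvate dioxygenase, had 6.7 and 7.22 CPM in PBS, 14.4 and 12.3 CPM in C40 and 201 and 110.3 CPM in I60. Hpdl had the highest I60 over PBS log2 fold change of the second stretch, 4.33 ± 0.31 (SE), though its I60 libraries differed from each other. After it, Zswim5, a zinc finger protein, had 0.07 and 0.0166 CPM in PBS, 1.93 and 1.93 CPM in C40 and 2.4 and 2.38 CPM in I60, and Urod, an enzyme of heme synthesis, had 21.5 and 26.5 CPM in PBS, 37 and 25.9 CPM in C40 and 38.7 and 41.7 CPM in I60. Zswim5 was near 0 in PBS and about equal in both treated lines, and Urod had log2 fold changes over PBS of 0.37 in C40 and 0.74 in I60.

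The choice of the stretches is taken here to rest on I60, but the rule names no comparison, its floor sums all 6 libraries, and C40 against PBS shares the PBS libraries. The C40 calls below are therefore not shown to be independent of the choice. Of the 55 tested members, 30 rose in C40 over PBS by limma at an adjusted p below 0.05, none fell and 25 did not pass; of all tested genes, 11.2% were called higher and 9.02% lower. By edgeR and by DESeq2, 33 and 40 members were higher and 0 lower, and at an unadjusted limma p below 0.05 the counts were 40 and 0. Of all 11524 tested genes, edgeR called 1351 higher and 1016 lower, and DESeq2 called 1815 and 1507. The count over all genes at the unadjusted p is not given here. The median log2 fold change was 0.92, a 1.89-fold difference, with quartiles of 0.61 and 1.22. In the first stretch 20 of 33 rose, at a median of 0.96, and in the second 10 of 22 rose, at a median of 0.88. Both C40 libraries lay above both PBS libraries for 46 members, where 30.9% of all tested genes did so, and below them for 1, where 31.8% did so.

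Some members passed the low-value filter only through a group where they were high. Of the 47 members with at least 1 CPM in both PBS libraries, 27 rose in C40 and none fell, at a median log2 fold change of 0.95, where 8.41% of all such genes were called higher. With no filter beyond the summed floor, 34 of all 68 were called higher and 0 lower, where 1428 and 1202 of all 14427 genes were. Between the stretches, 1 of 22 tested genes was higher in C40 (4.55%, against 11.2% of all tested genes). Another 3 were lower (13.6%, against 9.02%), and the median was -0.26. The 1 was Spata6, and the 3 were Calr4, Bend5 and Foxd2os. With any 1 library left out, the calls there were 1 to 2 higher and 1 to 5 lower.

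**Figure D2:**
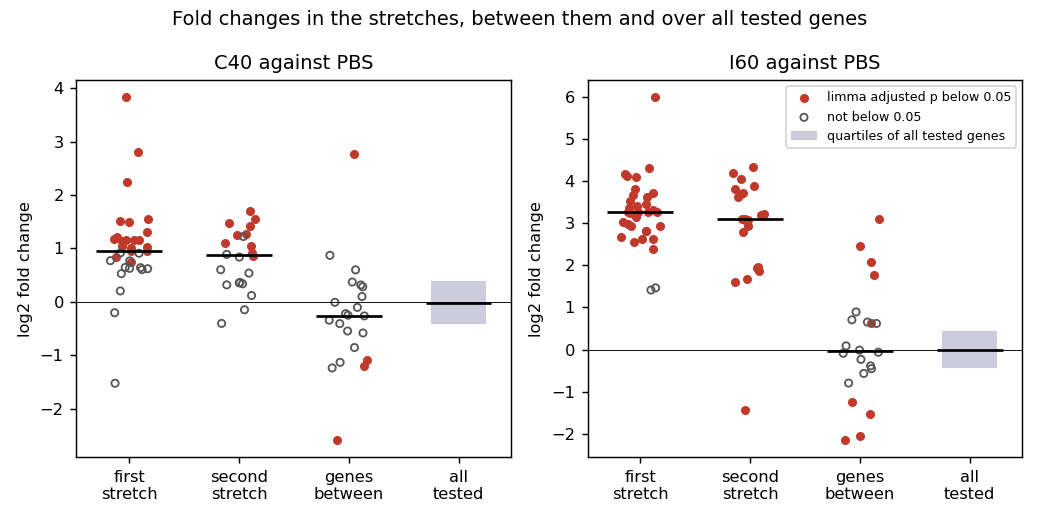
Log2 fold change of each tested gene of the first stretch, the second stretch and the region between, for C40 against PBS (left) and I60 against PBS (right). Filled points have a limma adjusted p below 0.05, black lines are medians and the box spans the quartiles of all tested genes; the C40 medians of the stretches are 0.96 and 0.88, against -0.26 between them.

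The number of C40 calls depended on both PBS libraries. Without PBS replicate 1 the count of members higher was 10 and without PBS replicate 2 it was 11. In such fits the remaining PBS library is assumed to vary like the libraries of the other groups. Over all tested genes the higher calls were 549 and 607 in the same fits, against 1293 with all libraries, so the loss was not particular to the members. Of the 30 calls, 20 and 19 were lost in those fits, and 0 to 3 were lost in each of the 12 other alternatives. The median moved little, between 0.85 and 1.11 with any 1 library left out. Without C40 replicate 1, 3 members were called lower, among them Lrp8 and Tspan1. The genes called under all 14 alternatives were Acot11, Echdc2, Glis1, Lrrc41, Mmachc, Nsun4, Tmem69, Tut4 and Txndc12. Acot11 and Glis1 were below 1 CPM in both PBS libraries, so they passed the low-value filter only through treated libraries. How many of all tested genes held under all 14 is not given here.

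I60 against C40 shares libraries with the comparison that chose the stretches and is described only. The median log2 fold change was 2.34, a 5.08-fold difference, and the summed level was 5.16 times that of C40. Both I60 libraries lay above both C40 libraries for 53 of the 55 members, where 24.4% of all tested genes did so. By limma, 52 were called higher and 1 lower, where 3.51% and 5.73% of all tested genes were called.

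The C40 duplicates differed over the members more than the duplicates of the other groups. The log2 difference of replicate 2 minus replicate 1 had a median of 0.02 over the members in PBS, -0.32 in C40 and 0.03 in I60. Its SD over members was 0.206 in PBS, 0.653 in C40 and 0.438 in I60. Tesk2, a kinase named here after its values were seen, had 22.2 and 7.03 CPM in C40, against 10.8 and 9.19 CPM in PBS. C40 replicate 2 is thus the lowest of all libraries for this gene and C40 replicate 1 lies above PBS, while both I60 libraries, at 87.4 and 58.7 CPM, are the highest. By limma the C40 over PBS log2 fold change of Tesk2 was 0.32 ± 0.50 (SE, adjusted p = 0.686), which did not pass.

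**Figure D3:**
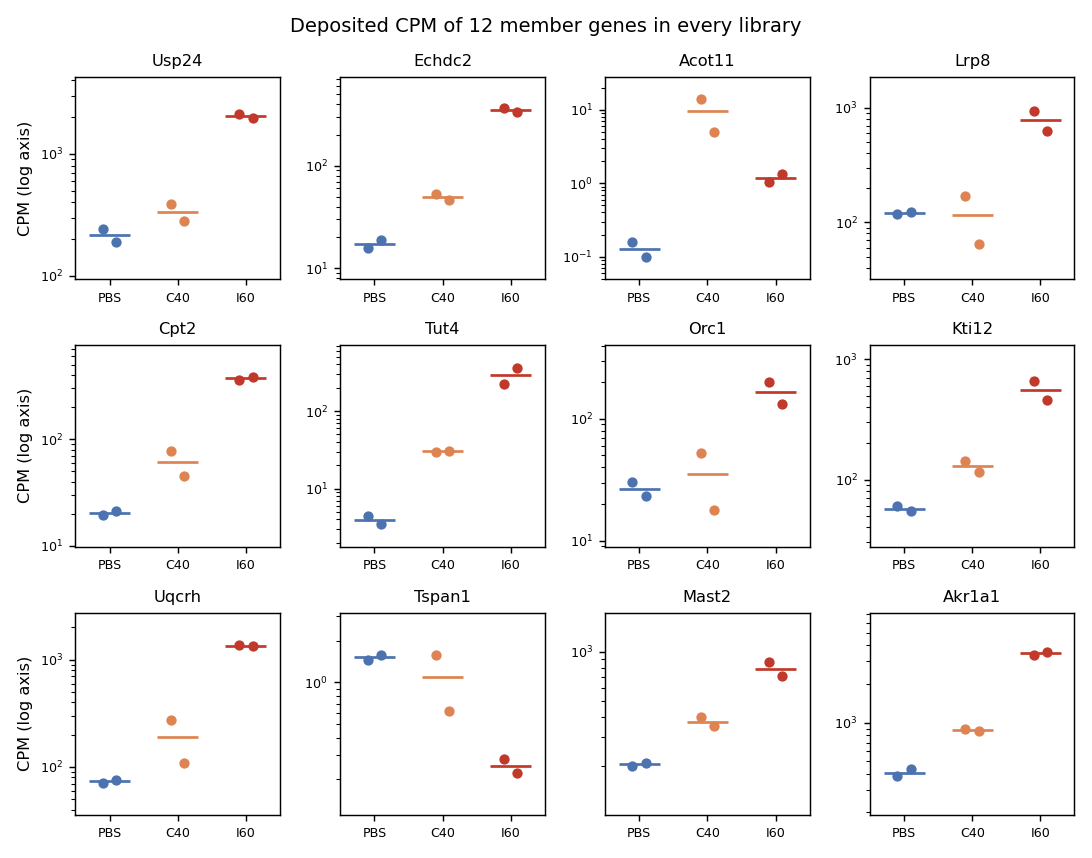
Deposited CPM of 12 members in each library, on log axes that differ between panels, with points for libraries (replicate 1 left, replicate 2 right) and lines for group means of 2. The I60 points lie above all others except for Acot11, where C40 is highest, and Tspan1, where PBS and C40 lie above I60.

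Genes of sterol and lipid metabolism form a first group of 5 tested members, of which 3 rose in C40 (limma, adjusted p below 0.05). For this and the role lists below, 54.5% of all tested members and 11.2% of all tested genes were called higher in C40. Their median log2 fold changes over PBS were 1.49 in C40 and 3.15 in I60. Lrp8, a receptor for apolipoprotein E and reelin, had 118 and 122 CPM in PBS, 169.6 and 64.2 CPM in C40 and 931 and 633 CPM in I60. Its C40 libraries lay on either side of those of PBS, while I60 was high. Cpt2, the inner-membrane enzyme that reforms acyl-CoA for mitochondrial fatty acid oxidation, had 19.6 and 21.3 CPM in PBS, 77.8 and 45.2 CPM in C40 and 363 and 383 CPM in I60. Echdc2, an enoyl-CoA hydratase-like protein, had 15.8 and 18.9 CPM in PBS, 53.2 and 46 CPM in C40 and 367 and 334 CPM in I60. Both were separate in all 3 groups, with C40 over PBS log2 fold changes of 1.51 ± 0.26 (SE, adjusted p = 0.00774) and 1.49 ± 0.18 (SE, adjusted p = 0.00182). In I60 over PBS they reached 4.15 and 4.30, among the 3 largest of the first stretch. Scp2, which carries sterols and lipids, had 20.5 and 20.7 CPM in PBS, 53.3 and 29.1 CPM in C40 and 165 and 211 CPM in I60. It did not pass in C40 (0.92 ± 0.30 SE, adjusted p = 0.0718) and stood at 3.15 in I60 over PBS. The Cpt2 call in C40 was lost without PBS replicate 1 or PBS replicate 2.

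Acot11, an acyl-CoA thioesterase, was the 1 tested member whose highest group was C40 in both libraries. Its levels were 0.158 and 0.0996 CPM in PBS, 14.1 and 4.99 CPM in C40 and 1.03 and 1.33 CPM in I60. The groups did not overlap, and the C40 over PBS log2 fold change was 3.83 ± 0.44 (SE, adjusted p = 0.00143) by limma, the largest of all tested members. In I60 over PBS it was 1.41, the smallest of the first stretch, and in I60 over C40 it was -2.42. Several low members had their most reads in C40 too, counted here over both libraries of a group. Fam151a, which overlaps Acot11, had 0 reads in PBS, 43 in C40 and 6 in I60. Lexm had 2 reads in PBS, 149 in C40 and 17 in I60, and Cdcp2 had 0 in PBS, 89 in C40 and 4 in I60. Bsnd, a chloride channel subunit of the kidney and inner ear, had 0 in PBS, 33 in C40 and 13 in I60. These 4 genes did not pass the filter and were not tested.

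Mitochondrial proteins made up 8 tested members, with median log2 fold changes over PBS of 1.38 in C40 and 3.80 in I60. Of these, 7 rose in C40 by limma and 1, Uqcrh, did not pass (1.22 ± 0.38 SE, adjusted p = 0.0628). The role lists share genes, so their counts are not separate. Cpt2 and Echdc2 are also counted under lipids and Nsun4 under RNA processing. Txndc12 is counted under both secretory proteins and reductases. Hpdl, named as mitochondrial above, is counted under reductases alone. The Uqcrh libraries of C40 both exceeded those of PBS but differed from each other. Mrpl37, a protein of the mitochondrial ribosome, had 66 and 67.6 CPM in PBS, 164 and 136 CPM in C40 and 1007 and 781 CPM in I60. Pars2, which charges the mitochondrial prolyl-tRNA, had 10.6 and 12.8 CPM in PBS, 30.6 and 19.3 CPM in C40 and 155 and 143 CPM in I60. Tmem69, a membrane protein, had 18.7 and 15.2 CPM in PBS, 46.2 and 49.7 CPM in C40 and 249 and 263 CPM in I60, and Mmachc, which processes vitamin B12, had 14.5 and 16.3 CPM in PBS, 38 and 37.8 CPM in C40 and 191 and 198 CPM in I60. In each of these 4 genes the 3 groups were separate and in the order PBS, C40, I60. Coa7, an assembly factor of cytochrome c oxidase that lies outside the list, had 17.6 and 14.3 CPM in PBS, 47.9 and 33.6 CPM in C40 and 174 and 141 CPM in I60. Without PBS replicate 1 or PBS replicate 2 the C40 calls of Mrpl37, Pars2, Cpt2 and Coa7 were lost, and that of Pars2 also without C40 replicate 1 or either I60 library.

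Among DNA replication, repair and nuclear proteins, none of 4 tested members passed in C40 by limma, although their median in I60 over PBS was 3.13. EdgeR, DESeq2 and an unadjusted limma p below 0.05 gave 0 calls in C40 as well. Nasp, a chaperone of histones, had 179 and 141 CPM in PBS, 305 and 176 CPM in C40 and 1510.2 and 1206 CPM in I60. Ndc1, which anchors the nuclear pore in its membrane, had 101 and 86.5 CPM in PBS, 175 and 105 CPM in C40 and 1028 and 787 CPM in I60. Rad54l, a motor protein of homologous recombination, had 25.7 and 24.1 CPM in PBS, 66.2 and 21.8 CPM in C40 and 262 and 202 CPM in I60, and Orc1, the largest subunit of the origin recognition complex, had 30 and 23.2 CPM in PBS, 52.2 and 17.8 CPM in C40 and 202 and 133 CPM in I60. In I60 both libraries of each gene stood above all others, at log2 fold changes over PBS of 2.61 to 3.26. In C40 the 2 libraries diverged, and C40 replicate 2 of Rad54l and Orc1 lay below both PBS libraries. The C40 over PBS log2 fold changes were 0.54 ± 0.28 (SE, adjusted p = 0.222) for Nasp, 0.53 ± 0.27 (SE, adjusted p = 0.211) for Ndc1, 0.60 ± 0.46 (SE, adjusted p = 0.393) for Rad54l and 0.20 ± 0.48 (SE, adjusted p = 0.791) for Orc1 by limma.

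The list headed RNA processing counted 6 tested members, of which 5 rose in C40 by limma, Gpbp1l1 among them. Median log2 fold changes over PBS were 0.97 in C40 and 3.46 in I60. Tut4, which adds uridines to the ends of RNAs such as the let-7 precursor, had 4.38 and 3.53 CPM in PBS, 29.9 and 30.7 CPM in C40 and 222 and 357 CPM in I60. It had the largest I60 over PBS log2 fold change of all tested members, 5.99 ± 0.27 (SE), or 63.6-fold. In C40 it rose on the log2 scale by 2.80 ± 0.27 (SE, adjusted p = 0.00063), or 6.94-fold, and its groups were wide apart. Prpf38a, a splicing factor, had 51 and 46.5 CPM in PBS, 85.8 and 79.3 CPM in C40 and 358 and 328 CPM in I60. Gpbp1l1, counted in the list though no role in RNA processing is shown for it here, had 37.6 and 48.6 CPM in PBS, 76.8 and 85 CPM in C40 and 347 and 468 CPM in I60. Both C40 libraries of these genes exceeded those of PBS, with log2 fold changes of 0.75 ± 0.16 (SE, adjusted p = 0.0164) and 0.91 ± 0.21 (SE, adjusted p = 0.026). Magoh, a core protein of the exon junction complex, had 46.2 and 41.7 CPM in PBS, 85.1 and 55.7 CPM in C40 and 366 and 311 CPM in I60, which in C40 over PBS did not pass (0.64 ± 0.23 SE, adjusted p = 0.0947). Nsun4 rose by 1.69 ± 0.20 (SE, adjusted p = 0.00144) and Toe1 by 1.04 ± 0.19 (SE, adjusted p = 0.00889). Without PBS replicate 1 or PBS replicate 2 the C40 calls of Prpf38a, Gpbp1l1 and Toe1 were lost, and that of Gpbp1l1 also without C40 replicate 2.

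Kinases and signalling proteins were 7 tested members, of which 3 rose in C40 by limma, Glis1, Mast2 and Cc2d1b. Their median log2 fold changes over PBS were 0.62 in C40 and 2.62 in I60. Glis1, a zinc finger transcription factor, had 0.875 and 0.531 CPM in PBS, 6.32 and 4.18 CPM in C40 and 19.6 and 20.2 CPM in I60. It rose in C40 by 2.25 ± 0.29 (SE, adjusted p = 0.00214), or 4.74-fold. Mast2, a microtubule-associated kinase, had 202 and 208 CPM in PBS, 398 and 349 CPM in C40 and 864 and 709 CPM in I60, and Cc2d1b, an endosomal protein, had 109.9 and 115 CPM in PBS, 238 and 172 CPM in C40 and 651 and 679 CPM in I60. In C40 the log2 fold changes were 0.86 ± 0.17 (SE, adjusted p = 0.0127) for Mast2 and 0.84 ± 0.19 (SE, adjusted p = 0.0222) for Cc2d1b, and both calls were lost without PBS replicate 1 or PBS replicate 2. The call of Cc2d1b was lost without either I60 library too.

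Ssbp3, a cofactor of LIM-domain transcription complexes, had 78.4 and 86.5 CPM in PBS, 159.8 and 98.5 CPM in C40 and 847 and 861 CPM in I60, and Zfyve9, which anchors Smad proteins of the TGF-beta pathway, had 23.5 and 23.9 CPM in PBS, 31.3 and 43 CPM in C40 and 125 and 177 CPM in I60. Neither passed in C40 by limma, at 0.60 ± 0.24 (SE, adjusted p = 0.117) and 0.62 ± 0.24 (SE, adjusted p = 0.118), although their groups did not overlap. Pik3r3, a regulatory subunit of phosphoinositide 3-kinase, had 17.8 and 12.5 CPM in PBS, 21 and 8.55 CPM in C40 and 45.4 and 53.2 CPM in I60. Its C40 libraries lay on either side of those of PBS, and its I60 over PBS log2 fold change of 1.69 was among the 3 smallest of the second stretch. Mast2, its neighbour, was at 1.93. Tesk2, a kinase named for its expression in testis, was at 2.78.

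The list headed ubiquitin pathway had 5 tested members, of which 3 rose in C40 by limma, Lrrc42 among them. Median log2 fold changes over PBS were 0.95 in C40 and 3.46 in I60. Usp24 did not pass in C40 (0.63 ± 0.21 SE, adjusted p = 0.0827), though both C40 libraries exceeded both PBS libraries. Lrrc41, a leucine-rich repeat protein, had 67.7 and 73.5 CPM in PBS, 208 and 206 CPM in C40 and 1289 and 1057 CPM in I60. Lrrc42, of the same repeat class, is counted in the list though no ubiquitin role is shown for it here. It had 38.5 and 39.5 CPM in PBS, 86.3 and 66.7 CPM in C40 and 571 and 532 CPM in I60. Zyg11b, a substrate receptor of a cullin ubiquitin ligase, had 48.7 and 44.8 CPM in PBS, 109 and 174 CPM in C40 and 475 and 568 CPM in I60. All 3 groups were separate in each, and the C40 over PBS log2 fold changes were 1.54 ± 0.16 (SE, adjusted p = 0.000991), 0.95 ± 0.18 (SE, adjusted p = 0.0107) and 1.55 ± 0.24 (SE, adjusted p = 0.00513), in that order. The call of Lrrc42 was lost without PBS replicate 1 or PBS replicate 2, and that of Zyg11b without PBS replicate 2. Ipp, a kelch-repeat protein, stood at 0.34 in C40 and 2.94 in I60.

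Proteins of the secretory pathway and membranes were 5 tested members, of which 3 rose in C40 by limma, at median log2 fold changes over PBS of 1.15 in C40 and 3.27 in I60. Tmem59, a Golgi membrane protein, had 115 and 127 CPM in PBS, 249 and 291 CPM in C40 and 1881 and 2382 CPM in I60. Its I60 over PBS value was 4.13, or 17.5-fold, and its C40 value 1.15 ± 0.18 (SE, adjusted p = 0.00539). Pomgnt1, which extends O-mannose sugars on dystroglycan, had 88.8 and 81.4 CPM in PBS, 220.2 and 186 CPM in C40 and 1405 and 1009 CPM in I60. Yipf1, a Golgi membrane protein, had 24.4 and 24.1 CPM in PBS, 44.4 and 32.6 CPM in C40 and 239 and 236 CPM in I60. Pomgnt1 rose in C40 (1.25 ± 0.20 SE, adjusted p = 0.00621) and Yipf1 did not pass (0.64 ± 0.20 SE, adjusted p = 0.0616). Txndc12, given above, rose by 1.18 ± 0.16 (SE, adjusted p = 0.0028). The C40 call of Tmem59 was lost without PBS replicate 1, and that of Pomgnt1 without PBS replicate 1 or PBS replicate 2.

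Tspan1, a tetraspanin found on epithelial cells, was lower in I60 than in PBS, unlike every other tested member. It had 1.45 and 1.59 CPM in PBS, 1.58 and 0.626 CPM in C40 and 0.281 and 0.221 CPM in I60. Both I60 libraries were below all others, and the I60 over PBS log2 fold change was -1.43 ± 0.32 (SE). Tspan1 lies between Pomgnt1 and Pik3r3, at chr4:116161881-116167621. Pomgnt1 on one side was at 3.80 and Pik3r3 on the other at 1.69. AV051173, a long non-coding RNA, was also among the 3 smallest of the second stretch, at 1.60. AV051173 had 0.0875 and 0.0996 CPM in PBS, 0.333 and 0 CPM in C40 and 1.31 and 1.29 CPM in I60, so I60 was the only group near 1 CPM.

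Reductases and enzymes of small molecules were 4 tested members, of which 3 rose in C40 by limma, at median log2 fold changes over PBS of 1.06 in C40 and 3.06 in I60. Akr1a1, an aldehyde reductase, had 383 and 432 CPM in PBS, 886 and 866 CPM in C40 and 3362 and 3580.2 CPM in I60. Cyb5rl, a relative of cytochrome b5 reductase, had 4.83 and 4.3 CPM in PBS, 10.5 and 8.89 CPM in C40 and 40.3 and 41.1 CPM in I60. Both rose in C40, at 1.11 ± 0.16 (SE, adjusted p = 0.00375) and 1.01 ± 0.22 (SE, adjusted p = 0.0202), and their groups did not overlap. Hpdl did not pass in C40 (0.89 ± 0.31 SE, adjusted p = 0.0837). The call of Akr1a1 was lost without PBS replicate 1, and that of Cyb5rl without either PBS or either I60 library.

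Of the members in no role list, Ttc4, a co-chaperone of Hsp90, had 49.1 and 43.8 CPM in PBS, 109 and 85.3 CPM in C40 and 568 and 519 CPM in I60. Hspb11, a protein of intraflagellar transport, had 3.36 and 3.05 CPM in PBS, 7.13 and 8.28 CPM in C40 and 36.2 and 59.4 CPM in I60. Czib, a zinc-binding protein, had 22.7 and 18.6 CPM in PBS, 59.8 and 38.6 CPM in C40 and 238 and 206 CPM in I60, and Ccdc163, a coiled-coil protein, had 5.72 and 5.82 CPM in PBS, 13.7 and 19.3 CPM in C40 and 46.7 and 61.1 CPM in I60. Each had 3 separate groups, in the order PBS, C40, I60. By limma the C40 over PBS log2 fold changes were 1.05 ± 0.18 (SE, adjusted p = 0.00774), 1.14 ± 0.29 (SE, adjusted p = 0.034), 1.21 ± 0.25 (SE, adjusted p = 0.0157) and 1.42 ± 0.26 (SE, adjusted p = 0.00972), in that order. All 4 calls were lost without PBS replicate 1 or PBS replicate 2, and that of Hspb11 also without C40 replicate 2. On the same scale Coa7 rose by 1.31 ± 0.24 (SE, adjusted p = 0.01), Mrpl37 by 1.15 ± 0.19 (SE, adjusted p = 0.00595) and Pars2 by 1.03 ± 0.26 (SE, adjusted p = 0.0327). Tmem69 and Mmachc rose by 1.48 ± 0.18 (SE, adjusted p = 0.00177) and 1.28 ± 0.17 (SE, adjusted p = 0.00251), and Kti12 by 1.16 ± 0.22 (SE, adjusted p = 0.0109). The call of Kti12 was lost without PBS replicate 1 or PBS replicate 2. Slc1a7, a glutamate transporter, had 0 CPM in both PBS libraries, 0.0208 and 1.2 CPM in C40 and 1.4 and 6.01 CPM in I60.

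Further tested members were Tceanc2, Btf3l4, 2510003B16Rik, C530005A16Rik and Ccdc17. None of these 5 passed in C40 by limma. Their I60 over PBS log2 fold changes were 3.32, 2.99, 1.96, 1.87 and 3.07, in that order. They are positive, as for every tested member except Tspan1.

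Besides the 4 low members named above, 9 more did not pass the filter. Mroh7 had 0 reads in PBS, 4 in C40 and 91 in I60. Zyg11a, related to Zyg11b, had 4 in PBS, 9 in C40 and 53 in I60. Podn, a matrix proteoglycan, had 0 in PBS, 15 in C40 and 48 in I60. Dio1, a deiodinase that activates thyroid hormone, had 0 in PBS, 8 in C40 and 26 in I60, and Dmrtb1 had 1 in PBS, 21 in C40 and 34 in I60. In these 5 I60 held the most reads. Ldlrad1 had 1 in PBS, 13 in C40 and 23 in I60. Shisal2a had 3 in PBS, 0 in C40 and 32 in I60, and Ttc22 had 5 in PBS, 2 in C40 and 10 in I60. Lurap1 went the other way, with 37 reads in PBS, 112 in C40 and 8 in I60. Each of the 13 stayed below 1 CPM in at least 5 libraries, and a count of 0 over a library allows up to 3 reads.

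Of the 68 members, 36 overlap another annotated gene. Pairs of members that overlap include Mrpl37 with Cyb5rl, Prpf38a with Orc1, Cc2d1b with Zfyve9, Txndc12 with Kti12, Lrrc41 with Rad54l, Mmachc with Ccdc163 and Tesk2 with Toe1. Whether reads were counted by strand is not stated, so the share of reads that such genes exchange was not tested. The partners of a pair did not always move alike. In C40 over PBS, Lrrc41 had a log2 fold change of 1.54 and Rad54l 0.60, and Prpf38a had 0.75 and Orc1 0.20.

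Several members belong to a complex or pathway whose other genes lie elsewhere in the genome. In 9 lists of such partners, 90 genes were tested, and the list set beside Lrp8 is a looser pairing. In C40 over PBS 8 were called higher and 20 lower by limma, at a median log2 fold change of -0.31. These are 8.89% and 22.2% of the partners, where 11.2% and 9.02% of all tested genes were called. In I60 over PBS 10 were higher and 20 lower, at a median of -0.13. These are 11.1% and 22.2%, where 13.9% and 13.1% of all tested genes were called. Of the 20 lower calls, 17 in C40 and 14 in I60 belong to the list of cholesterol synthesis and LDL uptake. The pooled shares of lower calls thus rest mostly on that list. Leaving out any 1 library gave 3 to 10 higher and 4 to 34 lower in C40, and 2 to 13 higher and 5 to 28 lower in I60. The members' own I60 over PBS log2 fold changes, 1.69 to 4.20 for the 9 genes paired with a list, stand beside these.

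**Figure D4:**
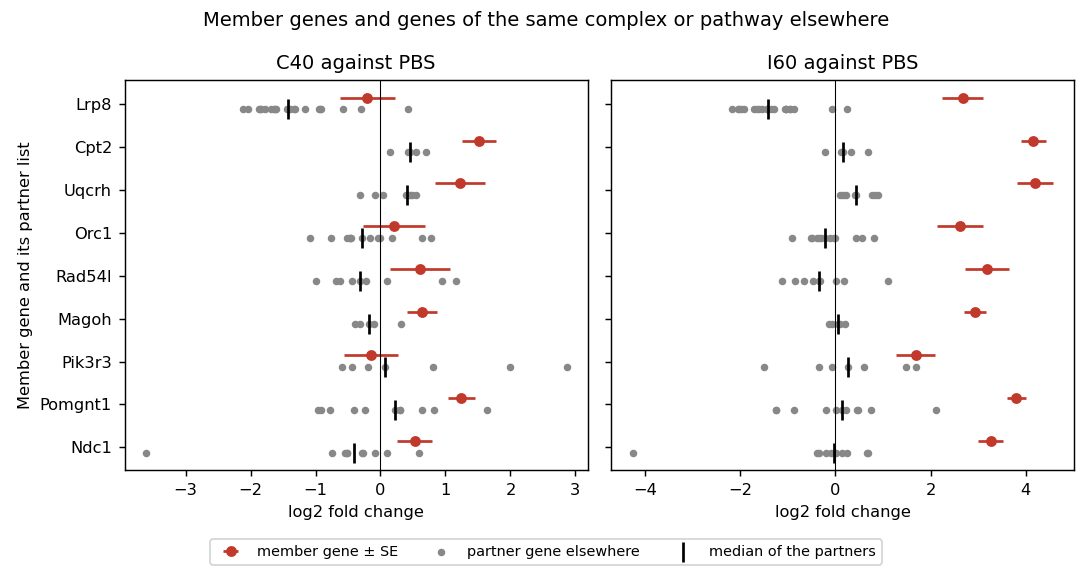
Log2 fold change of 9 members (red, ± SE) beside their partners elsewhere in the genome (grey points, black line for the median), for C40 against PBS (left) and I60 against PBS (right). In I60 the members lie between 1.69 and 4.20, while the partner medians lie between -1.42 and 0.42.

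The largest list was cholesterol synthesis and LDL uptake, which was set beside Lrp8. Lrp8, a receptor for apolipoprotein E and reelin, is not an enzyme of cholesterol synthesis, so the pairing is loose. Of its 22 genes 17 fell in C40 and 14 fell in I60, and none rose in either, by limma at an adjusted p below 0.05. Of all tested genes, 9.02% were called lower in C40 and 13.1% in I60. The counts of 0 were also 0 by edgeR and DESeq2, and at an unadjusted p 1 was higher in C40 and 0 in I60. The median log2 fold changes were -1.43 in C40 and -1.42 in I60. Insig1, which holds the SREBP transcription factors back in the endoplasmic reticulum, had 124 and 171 CPM in PBS, 62.1 and 17.7 CPM in C40 and 38.8 and 31.2 CPM in I60. Dhcr7, which makes cholesterol from 7-dehydrocholesterol, had 508 and 551 CPM in PBS, 201 and 107 CPM in C40 and 121 and 112 CPM in I60. Hmgcs1, an early enzyme of the pathway, had 334 and 293 CPM in PBS, 147 and 38.9 CPM in C40 and 134 and 85.5 CPM in I60, and Hsd17b7, a later one, had 100.2 and 89.8 CPM in PBS, 38.5 and 17 CPM in C40 and 28.5 and 18.3 CPM in I60. In these 4 genes both treated lines lay below PBS in every library. Lrp8 itself was at -0.20 in C40 and 2.67 in I60.

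The list's genes were also lower in replicate 2 than in replicate 1 of C40. The median log2 difference of replicate 2 minus replicate 1 was 0.27 for PBS, -1.09 for C40 and -0.19 for I60. Lrp8 had the same order of C40 libraries. Leaving out any 1 library gave 3 to 19 lower calls in C40 and 3 to 20 in I60.

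For the smaller lists that follow, the shares over all tested genes were 11.2% higher and 9.02% lower in C40. In I60 they were 13.9% and 13.1%, and a few calls in so small a list are not read as a result about it. Among 8 genes of respiratory complex III, 3 rose in I60 by limma, Cyc1 (0.89), Uqcr10 (0.83) and Uqcrfs1 (0.77), and none passed in C40. DESeq2 called 1 and edgeR 0 in C40, where 3 had an unadjusted p below 0.05, and without 1 library the I60 count went as low as 0. Uqcrh itself was at 1.22 in C40 and 4.20 in I60, against partner medians of 0.41 and 0.42. Of 5 genes of mitochondrial fatty acid import, none passed by limma, edgeR or DESeq2 in either line, with 1 at an unadjusted p below 0.05 in each. Cpt2 itself was at 1.51 in C40 and 4.15 in I60, against partner medians of 0.46 and 0.16. Of 5 genes of the exon junction complex, none passed by limma, edgeR, DESeq2 or an unadjusted p, and Magoh itself was at 0.64 in C40 and 2.93 in I60, against partner medians of -0.18 and 0.06.

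Of 13 genes listed with the origin recognition and MCM complexes, Cdt1 alone passed by limma, at 0.78 in C40 and 0.80 in I60. Cdt1 helps to load the MCM complex and is a subunit of neither complex. Orc1 itself was at 0.20 in C40 and 2.61 in I60, against partner medians of -0.29 and -0.22. Of 9 homologous recombination genes, Rad51b rose in C40 (1.16) and Rad54b fell in I60 (-1.12). Rad54l itself was at 0.60 in C40 and 3.18 in I60, against partner medians of -0.31 and -0.34. Of 10 nuclear pore genes, Nup188 rose in both lines (0.59 in C40, 0.67 in I60) and Nup205 in I60 (0.66), while Nup107 fell in both and Nup160 in C40 (-0.75). Nup107 had 3553 and 3404 CPM in PBS, 311 and 259 CPM in C40 and 194 and 169 CPM in I60, or -3.61 in C40 and -4.26 in I60. Ndc1 itself was at 0.53 in C40 and 3.26 in I60, against partner medians of -0.40 and -0.04.

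Among 7 tested subunits of class I phosphoinositide 3-kinase, Pik3r5, Pik3cd and Pik3r2 rose in C40, at 2.86, 1.99 and 0.81. In I60 Pik3r5 (1.70) and Pik3cd (1.48) rose and Pik3cb (-1.49) fell. Pik3r3 itself was at -0.15 in C40 and 1.69 in I60, against partner medians of 0.07 and 0.26. Among 11 genes of dystroglycan glycosylation, 2 rose in both lines, B4gat1 among them, and Pomgnt2 fell in both. B4gat1, a glycosyltransferase, was at 0.82 in C40 and 0.75 in I60. Dag1, dystroglycan itself, fell in I60 (-1.25), as did Pomk (-0.87). Pomgnt1 itself was at 1.25 in C40 and 3.80 in I60, against partner medians of 0.22 and 0.13. These smaller lists were counted by limma at an adjusted p below 0.05, and with 1 library left out the count of each moved by up to 5.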

How the data were processed

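RNA of 6 libraries, 2 each of PBS, C40 and I60 cells, was deposited as 1 table of CPM that the authors computed per Entrez gene. STAR and the build mm10 were used, per the submitters' processing notes. Which program counted the reads, with which annotation and by which strand rule, is not given in the sources used. Every value was a whole multiple of its library's smallest step (100% within 0.01 reads), so whole reads were recovered for the count tests. Positions came from RefSeq GRCm38.p6, which matched 24374 of 24454 IDs and left 80 unmatched. Values were taken as log2(CPM + 0.5) and fitted with limma 3.58.1 (R 4.3.3, intensity trend, two-sided), all 6 libraries sharing 1 model with 3 residual degrees of freedom. Genes had to reach 1 CPM in 2 or more libraries, which left 11524 for Benjamini-Hochberg adjustment, and a call is an adjusted p below 0.05.

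EdgeR 4.0.16 called 1351 genes higher and 1016 lower in C40 against PBS, where limma called 1293 and 1040. In I60 against PBS edgeR called 1626 and 1484 and limma 1607 and 1515. DESeq2 1.42.0, TMM scaling (which moved no median of all genes by as much as 0.02), pseudocounts of 0.1 and 1, no filter, fits of only 2 groups, a replicate block and leaving out each library were alternatives. The code was tested on simulated data. The members, gene lists and tests were chosen with earlier results of these data known. Values in every library are given for the 3 members with the largest and the 3 with the smallest I60 against PBS fold change in each stretch, the 2 genes on each side of every edge, up to 4 of each role list by mean CPM and every member called in C40 against PBS. Of the partner genes, up to 4 called ones per list and comparison are named by size of change. Of these, 2 members and 1 partner gene enter the counts but are not reported here.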

Additional observations from a re-analysis of the deposited data

Results flagged for a closer look

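In the limma fit of I60 against C40, 52 members were called higher and 1 lower at an adjusted p below 0.05. The members were chosen for high levels in I60, which fixes the direction of the first count, so it is a description and no test of a difference between the lines. The 1 lower was Acot11, with a log2 fold change of -2.42 in I60 over C40.

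For Lurap1 the lines lay on opposite sides of PBS in every library, and this difference in direction was not tested. The mean of I60 minus the mean of C40 was -1.05 CPM, with I60 below PBS and C40 above it. Lurap1 rests on 37 reads in PBS, 112 in C40 and 8 in I60.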

How the results depend on the processing

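Over the 14 alternatives, the median log2 fold change of the members was positive in all 3 comparisons. With 1 library left out it ran from 0.85 to 1.11 in C40 against PBS, 3.16 to 3.26 in I60 against PBS and 2.15 to 2.50 in I60 against C40. Members called higher then ran from 10 to 38, 48 to 54 and 36 to 53, and members called lower from 0 to 3, 0 to 1 and 0 to 2, in the same order. Between the stretches, calls in C40 ran from 1 to 2 higher and 1 to 5 lower, and in I60 from 3 to 6 in each direction. Partner genes ran from 3 to 10 higher and 4 to 34 lower in C40, and from 2 to 13 higher and 5 to 28 lower in I60. DESeq2 called 2 genes between the stretches higher and 7 lower in C40, where it called 1815 and 1507 of all 11524 tested genes. Fits of only the 2 groups called 4 partner genes higher and 8 lower in C40, where they called 961 and 715 of all tested genes. Members lower in I60 than in C40 were 3 with no filter, 2 by DESeq2 and 0 in the fit of 2 groups. The cause of these shifts was not tested, though fits with fewer libraries have fewer degrees of freedom.

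With 1 library left out, the sign of the C40 over PBS log2 fold change changed for 7 members that did not pass. The lowest and highest values were -0.25 and 0.49 for AV051173, -0.90 and 0.49 for Lrp8, -0.56 and 0.97 for Orc1, -0.77 and 0.48 for Pik3r3, -0.19 and 1.39 for Rad54l, -0.48 and 1.11 for Tesk2 and -0.84 and 0.041 for Tspan1.

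The groups share replicate numbers 1 and 2. The replicate differences correlated at 0.15 between C40 and PBS, 0.11 between I60 and PBS and 0.44 between I60 and C40, and with 2 numbers the numbers do not show a pairing. With the replicate block, 34 members were higher in C40 and 0 lower, 6 genes between the stretches were lower, and 53 members were higher in I60 against PBS. Of all 11524 tested genes, the same fit called 1552 higher and 1301 lower in C40, and 1786 higher in I60 against PBS. Depth limits the 13 low members, where 1 read is 0.0166 to 0.0208 CPM.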
